A study of Homo sapiens with 6 samples.

Results

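The mitochondrial ribosomal protein genes were defined as the rows of the count table whose symbol is MRPL or MRPS followed by a number and, in some, a letter from A to C. This rule took 76 of the 23346 genes of the table and used no measured value. The values come from RNA-seq of BT549 cells, an established breast cancer line that the labels give as mesenchymal and of wild-type genotype, grown in RPMI with 10% FCS. The cells received 20 nM of siRNA and RNA was prepared 6 d later. In 3 libraries this was BNC2 siRNA, made of 3 siRNAs in equal parts against the zinc finger gene BNC2 (basonuclin-2), and in the other 3 it was a negative control (NC) siRNA. The comparison asks how BNC2 knockdown changes gene expression in a mesenchymal-like line. It rests on 1 line and 1 siRNA mix, so effects of the mix on other transcripts cannot be told apart from those of BNC2.

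Mitochondria translate the few proteins encoded by their own genome, core subunits of the oxidative phosphorylation complexes, on ribosomes that differ from those of the cytosol. The RNAs of these ribosomes come from the mitochondrial genome, whereas every protein is encoded in the nucleus, made in the cytosol and imported. Some of the proteins have a counterpart in the bacterial ribosome and others are found only in mitochondria. The symbols follow the history of their naming: MRPS18A and MRPS30 sit in the large subunit, and MRPS36 is now known as a part of the 2-oxoglutarate dehydrogenase complex. By this assignment the 76 genes comprise 49 of the large subunit, 26 of the small subunit and MRPS36.

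Libraries held 16093978 to 18246254 counts on genes. Between 37.7% and 41.1% of all reads per library were not counted for any gene, including 8.68% to 9.71% with several positions in the genome. BNC2, the target, had 65.6, 51.5 and 58.6 CPM in the NC libraries and 35.5, 36.6 and 41.6 CPM in the BNC2 libraries. CPM stands for counts scaled by library size with TMM factors. By edgeR's quasi-likelihood test 64.6% of its level remained (log2 fold change -0.63 ± 0.09, adjusted p = 8.2e-06). For log2 fold changes, ± is a standard error worked out from the fold change and the F statistic of that test. The mesenchymal markers VIM, FN1, CDH2 and ZEB1 were present in every library and all 4 were higher with BNC2 siRNA (log2 fold changes 0.18, 0.39, 1.36 and 0.34), VIM not without the second NC library (adjusted p = 0.058) or with total counts only (adjusted p = 0.090), whereas the epithelial markers CDH1, EPCAM, ESRP1 and GRHL2 and the leukocyte marker PTPRC did not pass the expression filter, at no more than 0.0637 CPM for the epithelial genes and 0.395 CPM for PTPRC. The part of the mesenchymal markers in the values below was not tested.

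Of the 76 genes, 75 exceeded 1 CPM in 3 or more libraries and were tested with edgeR's quasi-likelihood test. At a Benjamini-Hochberg adjusted p of at most 0.05 over the 12186 genes tested, 17 were up-regulated and 27 down-regulated upon BNC2 knockdown, and 31 were not called. The 44 called genes are 58.7% of the 75, beside 72.9% of all genes tested. By direction, 22.7% of the 75 were up-regulated beside 36.6% of all genes, and 36.0% were down-regulated beside 36.2%. Most of the changes were small. The median log2 fold change (BNC2 siRNA over NC siRNA) was -0.03, compared with 0.00 over all genes, and the median size of the change in either direction was 0.27, compared with 0.44. Only 10 of the 75 were called with a change of at least 1.5-fold (13.3%, beside 38.2% of all genes), and MRPL32 was the only one past 2-fold. In 43 of the 75 (57.3%) the 3 libraries of one group all lay outside the range of the other, 20 above and 23 below, beside 74.9% of all genes. In bulk RNA, a lower level per cell and fewer cells that express a gene cannot be told apart.

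**Figure D1:**
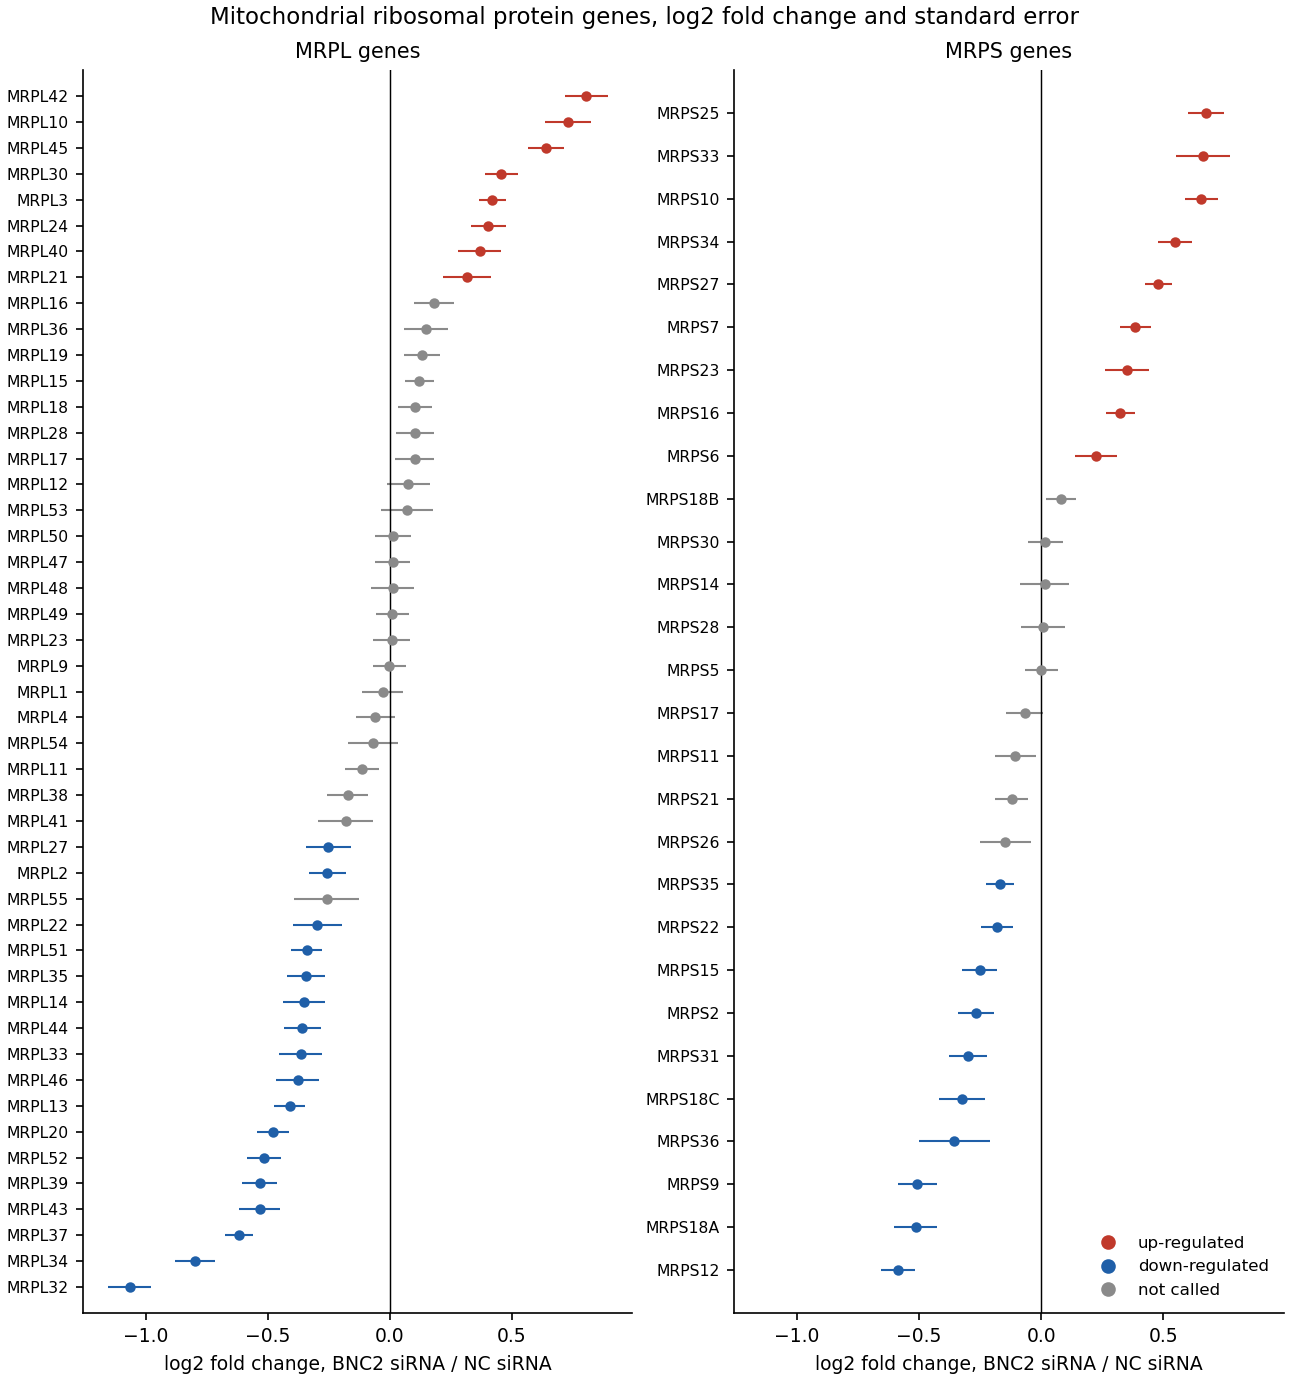
Log2 fold change (BNC2 siRNA over NC siRNA, x axis) of the 75 tested genes, MRPL symbols on the left and MRPS symbols on the right, with bars of 1 standard error and colours for the call at an adjusted p of at most 0.05. Values run from -1.07 (MRPL32) to 0.81 (MRPL42), with 17 genes up-regulated and 27 down-regulated.

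The largest falls were in genes of both subunits. MRPL32 (chr7:42971975-42988557, hg19), a large-subunit protein that is matured by the m-AAA protease before the ribosome is assembled, had 72.6, 89 and 89.3 CPM with NC siRNA and 43.9, 39.4 and 36.4 CPM with BNC2 siRNA, a 2.09-fold fall (log2 fold change -1.07 ± 0.09, adjusted p = 1.3e-08). MRPL34 (chr19:17403418-17417652), another protein with a bacterial counterpart, had 71.8, 84.9 and 82.9 CPM with NC siRNA and 51.1, 44.7 and 42 CPM with BNC2 siRNA (log2 fold change -0.80 ± 0.08, adjusted p = 2.1e-07). In both, every BNC2 library lay below every NC library. MRPL37 (chr1:54649714-54691137), which occurs only in mitochondria, had 279.7, 287 and 313 CPM with NC siRNA and 194, 189 and 189 CPM with BNC2 siRNA (log2 fold change -0.62 ± 0.06, adjusted p = 5.3e-08). MRPS12 (chr19:39421584-39423808), the counterpart of the bacterial protein S12 of the decoding centre, had 69.3, 81.7 and 74.3 CPM with NC siRNA and 50.9, 49.6 and 49.5 CPM with BNC2 siRNA (log2 fold change -0.59 ± 0.07, adjusted p = 1.2e-06). Its BNC2 libraries lay close together and well below the NC libraries.

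Next in size were 4 falls of similar magnitude. MRPL43 (chr10:102729215-102747272), found only in mitochondria, had 53, 63.3 and 58.1 CPM with NC siRNA and 44.2, 38.5 and 37.8 CPM with BNC2 siRNA (log2 fold change -0.53 ± 0.08, adjusted p = 2.0e-05). MRPL39 (chr21:26957968-26979829), a protein that resembles threonyl-tRNA synthetase, had 55.1, 54.6 and 55.9 CPM with NC siRNA and 39.4, 40.2 and 34.7 CPM with BNC2 siRNA (log2 fold change -0.53 ± 0.07, adjusted p = 5.0e-06). MRPL52 (chr14:23299088-23304246), which lies in the central protuberance of the large subunit, had 71, 69.9 and 65.1 CPM with NC siRNA and 51.6, 47.3 and 45.1 CPM with BNC2 siRNA (log2 fold change -0.52 ± 0.07, adjusted p = 5.1e-06). The groups did not overlap in any of these 3 genes. MRPS18A (chr6:43638939-43655528), the S18 paralogue of the large subunit, had 35.8, 35 and 32.3 CPM with NC siRNA and 26.7, 23.9 and 21.5 CPM with BNC2 siRNA (log2 fold change -0.51 ± 0.09, adjusted p = 6.8e-05), again without overlap.

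The start regions of MRPL32 and MRPS12 are shown because each lies head to head with a neighbouring gene, which in one pair moved with the ribosomal gene and in the other moved against it. The windows cover 250 bases before and 50 after the transcription start in RefSeq (GRCh38.p14), at chr7:42932126-42932425 for MRPL32 and chr19:38930694-38930993 for MRPS12, both on the plus strand. Capitals mark matches, on either strand, to 8 short motifs: GCGCATGC (NRF1), CCGGAAG (ETS factors such as GABPA), AAGATGGCG (YY1), ACTACANTT (ZNF143), GGGCGG (SP1), the CCAAT box, the E-box with letters CACGTG, and the TATA box with letters TATAAA.
MRPL32: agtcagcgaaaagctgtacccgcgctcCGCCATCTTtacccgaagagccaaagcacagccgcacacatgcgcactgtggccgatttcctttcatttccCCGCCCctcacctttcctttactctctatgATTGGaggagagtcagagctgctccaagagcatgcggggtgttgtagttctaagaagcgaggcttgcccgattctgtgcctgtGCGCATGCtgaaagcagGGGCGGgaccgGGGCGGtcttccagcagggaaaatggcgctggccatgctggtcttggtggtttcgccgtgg
MRPS12: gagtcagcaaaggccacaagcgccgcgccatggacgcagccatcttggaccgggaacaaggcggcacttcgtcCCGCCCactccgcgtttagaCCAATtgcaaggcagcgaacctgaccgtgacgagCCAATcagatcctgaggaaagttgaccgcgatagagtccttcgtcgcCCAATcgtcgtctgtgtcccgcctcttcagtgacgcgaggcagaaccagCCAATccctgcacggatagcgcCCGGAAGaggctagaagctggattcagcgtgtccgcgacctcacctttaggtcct
The MRPL32 window held 6 matches: on the minus strand YY1 letters beginning at -223 from the start, SP1 letters at -152 and a CCAAT box at -122, and on the plus strand NRF1 letters at -39 and SP1 letters at -22 and -11. The MRPS12 window also held 6 matches, of which 4 were CCAAT boxes at -157, -123, -76 and -27, and 1 was ETS letters at -5, all on the plus strand, with SP1 letters on the minus strand at -177. Only matching letters were searched for, and binding was not measured.

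The largest rises were of the same order. MRPL42 (chr12:93861290-93909990), a protein found only in mitochondria, had 26.9, 22.3 and 28.1 CPM with NC siRNA and 44.3, 45.9 and 44.9 CPM with BNC2 siRNA, a 1.75-fold rise (log2 fold change 0.81 ± 0.09, adjusted p = 3.0e-07). MRPL10 (chr17:45900638-45908907), the base of the stalk that recruits translation factors, had 17.1, 19.5 and 17.1 CPM with NC siRNA and 31.6, 26.7 and 30.7 CPM with BNC2 siRNA (log2 fold change 0.73 ± 0.09, adjusted p = 2.6e-06). MRPL45 (chr17:36452989-36479100), which sits at the exit of the peptide tunnel and tethers the ribosome to the inner membrane, had 31.7, 31.7 and 35.8 CPM with NC siRNA and 50.7, 51.4 and 52.5 CPM with BNC2 siRNA (log2 fold change 0.64 ± 0.07, adjusted p = 6.6e-07). Each BNC2 library lay above each NC library in all 3. The other 5 of the 8 largest rises were small-subunit genes.

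MRPS25 (chr3:15051118-15106846), a small-subunit protein found only in mitochondria, had 45.1, 46.3 and 41.5 CPM with NC siRNA and 75.9, 71.1 and 65.2 CPM with BNC2 siRNA (log2 fold change 0.68 ± 0.07, adjusted p = 3.6e-07). MRPS33 (chr7:140702410-140715028), of the same class, had 12.1, 16.1 and 12.5 CPM with NC siRNA and 22, 21.7 and 20.8 CPM with BNC2 siRNA (log2 fold change 0.66 ± 0.11, adjusted p = 4.0e-05). MRPS10 (chr6:42174545-42185599), the counterpart of bacterial S10, had 49.6, 45 and 51.1 CPM with NC siRNA and 78.1, 73.3 and 78.4 CPM with BNC2 siRNA (log2 fold change 0.66 ± 0.07, adjusted p = 2.2e-07). The groups were separate in each of these 3 genes. MRPS34 (chr16:1821891-1823151) had 61.4, 67.5 and 70.7 CPM with NC siRNA and 104, 92.5 and 95.5 CPM with BNC2 siRNA (log2 fold change 0.55 ± 0.07, adjusted p = 2.2e-06). MRPS27 (chr5:71510780-71617544), a pentatricopeptide repeat protein that binds RNA, had 112, 109.6 and 109 CPM with NC siRNA and 149.9, 153 and 158 CPM with BNC2 siRNA (log2 fold change 0.48 ± 0.06, adjusted p = 7.4e-07). Both are small-subunit proteins of mitochondria alone, and neither gene had overlapping groups.

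**Figure D2:**
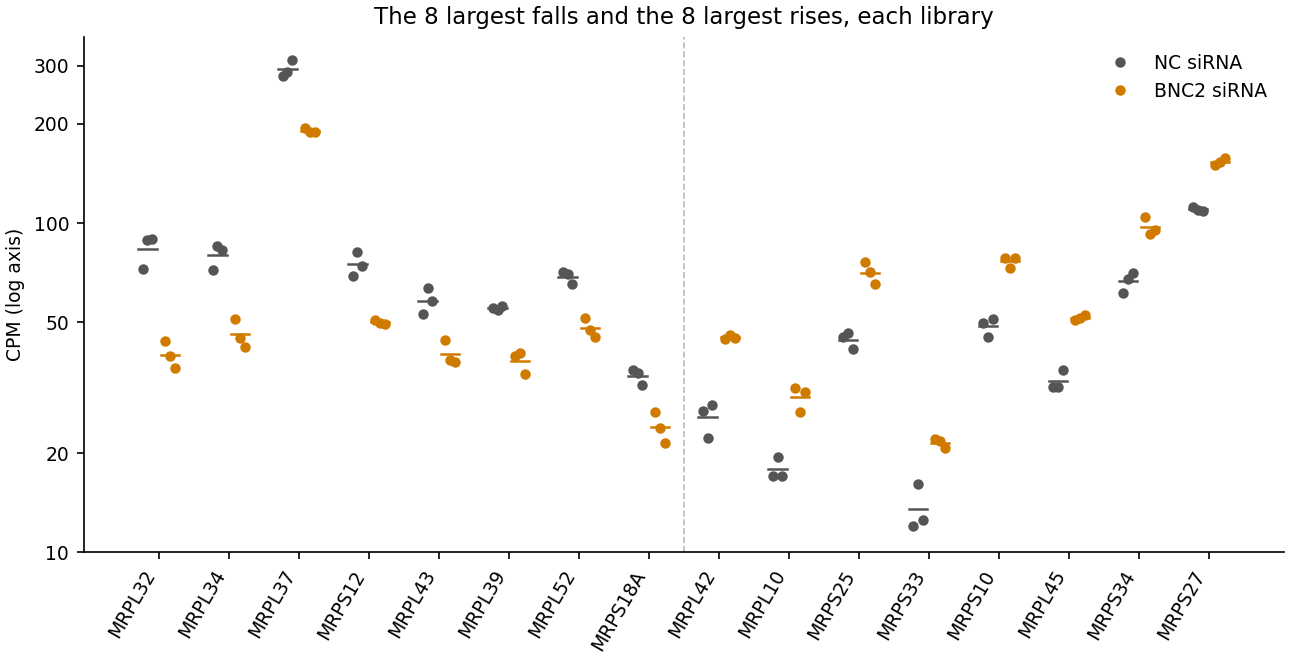
CPM (y axis, log scale) of each library for the 8 largest falls (left of the dashed line) and the 8 largest rises (right), with NC siRNA in grey and BNC2 siRNA in orange. Short lines are means of 3 libraries, and in all 16 genes the groups are separate.

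For comparison, the start regions of MRPL42, the largest rise, and of MRPL30, which rose while its head-to-head neighbour fell, lie at chr12:93467264-93467563 and chr2:99180934-99181233, both on the plus strand, with the same motifs in capitals.
MRPL42: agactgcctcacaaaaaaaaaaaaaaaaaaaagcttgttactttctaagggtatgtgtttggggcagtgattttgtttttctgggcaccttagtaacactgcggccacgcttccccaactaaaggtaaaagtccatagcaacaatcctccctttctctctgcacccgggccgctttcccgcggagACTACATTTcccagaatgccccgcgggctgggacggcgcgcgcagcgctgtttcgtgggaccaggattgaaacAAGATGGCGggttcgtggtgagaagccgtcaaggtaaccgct
MRPL30: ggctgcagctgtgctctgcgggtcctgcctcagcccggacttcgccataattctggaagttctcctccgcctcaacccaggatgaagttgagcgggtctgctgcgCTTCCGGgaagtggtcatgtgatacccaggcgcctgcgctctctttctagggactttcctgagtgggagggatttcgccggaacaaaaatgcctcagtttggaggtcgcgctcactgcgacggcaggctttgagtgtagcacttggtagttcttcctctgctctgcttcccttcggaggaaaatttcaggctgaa
The MRPL42 window held 2 matches, ZNF143 letters at -65 and YY1 letters at 9, just after the start, both on the plus strand. The MRPL30 window held 1 match, ETS letters on the minus strand at -145.

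By subunit, 8 of the 49 large-subunit genes were up-regulated and 18 down-regulated (median log2 fold change -0.03), and of the 25 small-subunit genes tested 9 were up-regulated and 8 down-regulated (median 0.00). Among the 19 large-subunit genes found only in mitochondria, 3 rose and 8 fell, with a median of -0.17. Among the 10 small-subunit genes of that kind, 5 rose and 3 fell, with a median of 0.22. The 30 large-subunit genes with a bacterial counterpart divided into 5 up and 10 down, and the 15 of the small subunit into 4 up and 5 down. Over all genes tested, 36.6% were up-regulated and 36.2% down-regulated. The 18 of 49 large-subunit genes that fell (36.7%) and the 9 of 25 small-subunit genes that rose (36.0%) were close to these shares. The 8 of 49 large-subunit genes that rose (16.3%) lay below the 36.6%, and 8 of 25 small-subunit genes fell (32%). Of genes found only in mitochondria, 15.8% rose and 42.1% fell in the large subunit, and 50% and 30% in the small. Of those with a bacterial counterpart, 16.7% rose and 33.3% fell in the large subunit, and 26.7% and 33.3% in the small. The difference between these classes was not tested.

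Within the large subunit, 1 of the 5 genes of the L7/L12 stalk and its base was called, 3 of 6 around the tunnel exit and 4 of 7 in the central protuberance, beside 72.9% of all genes, and with so few genes these counts are given as a description. In the stalk MRPL10 was up-regulated, whereas MRPL11, MRPL12, MRPL53 and MRPL54 had log2 fold changes between -0.11 and 0.08. MRPL12, the stalk protein that also binds mitochondrial RNA polymerase, had 43.6, 53.4 and 47.6 CPM with NC siRNA and 55.2, 52.3 and 44.8 CPM with BNC2 siRNA (log2 fold change 0.08 ± 0.09, adjusted p = 0.45), with overlapping groups. Around the tunnel exit, MRPL45 and MRPL24 (0.40) rose and MRPL22 (-0.30) fell, the last not called without the third NC library (adjusted p = 0.070). In the central protuberance, MRPL40 (0.37) rose, whereas MRPL52, MRPL46 (-0.38) and MRPL27 (-0.25) fell. The 3 S18 paralogues also differed in their values. MRPS18A and MRPS18C fell, MRPS18C from 27.1, 31.1 and 32 CPM to 26.8, 22.1 and 23.2 CPM (log2 fold change -0.32 ± 0.09, adjusted p = 0.0055). MRPS18B was not called, with 67.7, 66.5 and 68.9 CPM with NC siRNA and 74.3, 71.6 and 69 CPM with BNC2 siRNA (log2 fold change 0.08 ± 0.06, adjusted p = 0.24), although its groups did not overlap. In reads on the strand opposite to the gene, which are not part of these counts, edgeR's test called 5 of 73 members, 1 higher and 4 lower, beside 11.9% of all genes with enough such reads to be tested (6.54% higher and 5.39% lower).

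The remaining calls were of less than 1.5-fold. Down-regulated were MRPS9 (-0.51), MRPL20 (-0.48), MRPL13 (-0.41), MRPL33 (-0.37), MRPL44 (-0.36), MRPL14 (-0.35), MRPL35 (-0.34), MRPL51 (-0.34), MRPS31 (-0.30), MRPS2 (-0.27), MRPL2 (-0.26), MRPS15 (-0.25), MRPS22 (-0.18) and MRPS35 (-0.17), given as log2 fold changes. Up-regulated were MRPL30 (0.46), MRPL3 (0.42), MRPS7 (0.39), MRPS23 (0.35), MRPS16 (0.32) and MRPL21 (0.32). MRPS22 lost its call without the second BNC2 library (adjusted p = 0.13) and without the low-count filter (adjusted p = 0.064). MRPS35 lost it without the second NC library (adjusted p = 0.050026), the second BNC2 library (adjusted p = 0.069) or the low-count filter (adjusted p = 0.068), and MRPL21 without the first BNC2 library (adjusted p = 0.052). In 4 of the called genes, MRPS36, MRPL22, MRPS2 and MRPL27, the groups overlapped. The 31 genes that were not called had log2 fold changes of at most 0.26 in size, and MRPL55 (-0.26, adjusted p = 0.091) was the largest of them.

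Several genes lay near the threshold. MRPS36 had 12.1, 12.5 and 11.9 CPM with NC siRNA and 8.90, 12.1 and 7.39 CPM with BNC2 siRNA (log2 fold change -0.36 ± 0.15, adjusted p = 0.037), and its second BNC2 library reached the level of the NC libraries. It was not called without the second NC library (adjusted p = 0.075), the first BNC2 library (adjusted p = 0.12) or the third BNC2 library (adjusted p = 0.19). MRPL27 had 42.6, 53.5 and 52.7 CPM with NC siRNA and 43.8, 43.9 and 37.2 CPM with BNC2 siRNA (log2 fold change -0.25 ± 0.09, adjusted p = 0.022), and lost the call without the second NC library (adjusted p = 0.077), the third NC library (adjusted p = 0.055) or the third BNC2 library (adjusted p = 0.11). Just past the threshold on the other side, MRPL16 had 42.5, 51.1 and 51.8 CPM with NC siRNA and 59.4, 52.2 and 53.2 CPM with BNC2 siRNA (log2 fold change 0.18 ± 0.08, adjusted p = 0.06), and MRPL15 had 81.4, 83.7 and 85.7 CPM with NC siRNA and 88.4, 90.1 and 94.2 CPM with BNC2 siRNA (log2 fold change 0.12 ± 0.06, adjusted p = 0.077). In both the BNC2 libraries were all above the NC libraries, without a call, and MRPL16 was called without the third NC library (adjusted p = 0.049). MRPL38, of the central protuberance, had 50.4, 60.4 and 59.7 CPM with NC siRNA and 55.5, 49 and 46.6 CPM with BNC2 siRNA (log2 fold change -0.17 ± 0.08, adjusted p = 0.076), with overlapping groups. Without the first NC library MRPL38 was called (adjusted p = 0.0028), as it was without the first BNC2 library (adjusted p = 0.024). MRPL41 and MRPS30, large-subunit proteins that have also been described in apoptosis, were not called, with log2 fold changes of -0.18 (adjusted p = 0.16) and 0.02 (adjusted p = 0.84). MRPL41 was called lower without the first NC library (-0.30, adjusted p = 0.0081) or the first BNC2 library (-0.35, adjusted p = 0.0032).

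The counts of 3 genes are limited by shared exons. MRPS24 was the 1 gene not tested. It had 12, 8 and 10 counts in the NC libraries and 0, 4 and 3 in the BNC2 libraries, and the count of 0 allows up to 0.174 CPM. Its exons are shared on the same strand with the read-through row URGCP-MRPS24, which had 0 counts in every library, and the counting leaves out reads that overlap 2 genes, so its counts do not give its level. MRPS6 shares exons with SLC5A3, a myo-inositol transporter gene that rose from 39.1, 33.7 and 32.5 CPM to 86.3, 92.5 and 107 CPM (log2 fold change 1.44 ± 0.09, adjusted p = 3.1e-10). MRPS6 itself had 54.2, 58.8 and 62 CPM with NC siRNA and 78.6, 63.1 and 62.8 CPM with BNC2 siRNA (log2 fold change 0.23 ± 0.09, adjusted p = 0.026), with the first BNC2 library highest. It was not called without the first BNC2 library (log2 fold change 0.12, adjusted p = 0.20), the first NC library (0.15, adjusted p = 0.099) or the second NC library (0.21, adjusted p = 0.070), nor with scaling by total counts only (0.15, adjusted p = 0.12). MRPL53 shares exons with CCDC142 and was not called (log2 fold change 0.07 ± 0.11, adjusted p = 0.57).

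Levels between genes were compared per kb of the median coding transcript. Ordered by the NC libraries, MRPL51 had the highest level, 543 ± 21.5 with NC siRNA and 428 ± 33.2 with BNC2 siRNA CPM per kb (SD, n = 3 each), followed by MRPL37 with 198 ± 11.6 with NC siRNA and 129 ± 1.97 with BNC2 siRNA and MRPL41 with 155 ± 19.4 with NC siRNA and 137 ± 27.9 with BNC2 siRNA. MRPL51 was the highest in both groups. With BNC2 siRNA the next were MRPL3 (137 ± 6.09), MRPL41 and MRPL37, which differed from each other by less than the SD of MRPL41. The lowest of the tested genes with NC siRNA were MRPS23 (6.96 ± 0.661 with NC siRNA and 8.89 ± 0.500 with BNC2 siRNA CPM per kb), MRPS14 (8.51 ± 0.919 with NC siRNA and 8.58 ± 0.567 with BNC2 siRNA) and MRPS36 (10.1 ± 0.295 with NC siRNA and 7.88 ± 1.99 with BNC2 siRNA). MRPS23, which is found only in mitochondria, was up-regulated, and MRPS14, the counterpart of bacterial S14, was not called. In the NC libraries MRPS23 and MRPS14 differed by less than the sum of their SDs, as did MRPS36 and the next gene, MRPL10 (10.2 ± 0.795). The same 3 genes were lowest with BNC2 siRNA, with MRPS36 lowest of all, although they differed from each other by less than the SD of MRPS36. The choice of transcript matters for these levels. Per kb of the canonical transcript, MRPL51 (333 CPM per kb with NC siRNA), MRPL37 and MRPL41 were again the 3 highest, whereas the 3 lowest were MRPL42 (1.66), MRPS33 (3.22) and MRPS23 (3.84), and MRPS14 (8.51) and MRPS36 were not among them.

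Summed over the 76 genes, the NC libraries had 4523, 4844 and 4892 CPM and the BNC2 libraries 4724, 4556 and 4381 CPM, and the groups overlapped (4753 ± 201 CPM with NC siRNA and 4554 ± 172 CPM with BNC2 siRNA, SD, n = 3 each). The 49 large-subunit genes summed to 2956, 3143 and 3183 CPM with NC siRNA and 2940, 2861 and 2724 CPM with BNC2 siRNA. Here the means were 3094 ± 121 and 2842 ± 109.5, and the highest BNC2 library lay just below the lowest NC library. The 26 small-subunit genes summed to 1647 ± 79.8 CPM with NC siRNA and 1703 ± 64.9 CPM with BNC2 siRNA, with overlapping groups. In these sums the largest genes weigh most, and MRPL37 and MRPL51 were both down-regulated. One NC library stood somewhat apart: the first NC replicate was the lowest of its group in 48 of the 75 genes, compared with 36.5% of all genes, and the first BNC2 replicate was the highest of its group in 44 of the 75, compared with 35.7%. Without the first NC replicate, 17 genes were up-regulated and 36 down-regulated.

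**Figure D3:**
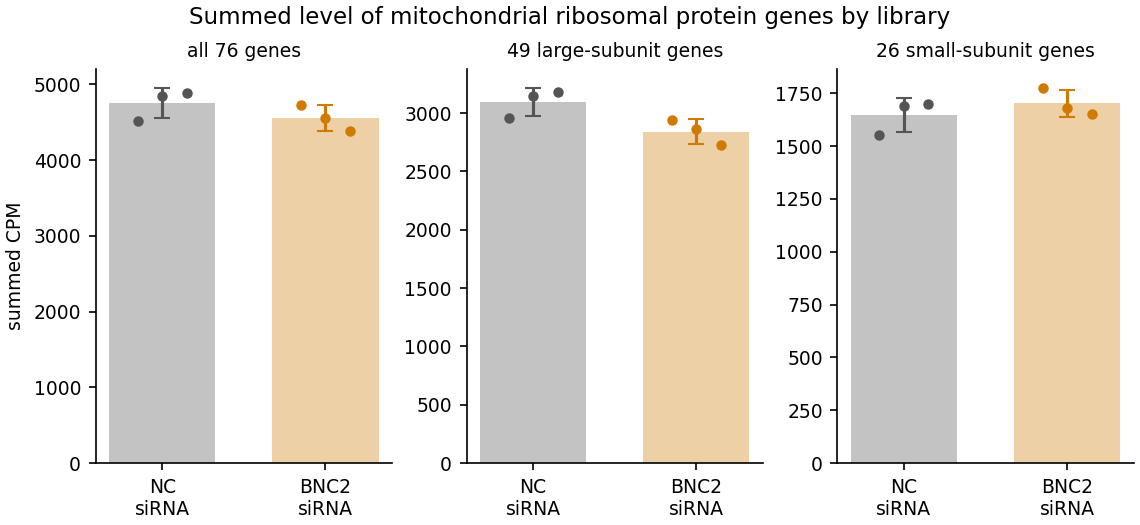
Summed CPM per library (points) of all 76 genes, the 49 large-subunit and the 26 small-subunit genes, with bars for the mean and error bars for the SD of 3 libraries. The large-subunit means are 3094 and 2842 CPM, and for the other sums the groups overlap.

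A gene of the mitochondrial ribosome does not always carry an MRPL or MRPS symbol, and 7 such genes were followed beside the family. Of these GADD45GIP1, a large-subunit protein also known as CRIF1, fell most, from 117, 148 and 149.6 CPM to 87.1, 71.7 and 67.1 CPM (log2 fold change -0.87 ± 0.10, adjusted p = 5.1e-07). DAP3, a GTP-binding protein of the small subunit, fell from 126, 138 and 128 CPM to 116, 109.6 and 111 CPM (log2 fold change -0.22 ± 0.06, adjusted p = 0.0029), and ICT1, a peptidyl-tRNA hydrolase built into the large subunit, fell by 0.26 on the log2 scale, a call lost without the second NC library (adjusted p = 0.077) or the second BNC2 library (adjusted p = 0.11). PTCD3 (0.49), of the small subunit, and MRP63 (0.25), of the large, rose, while CHCHD1 (0.21) and AURKAIP1 (-0.02) were not called. The call of MRP63 was lost without the first NC library (adjusted p = 0.065), the first BNC2 library (adjusted p = 0.085) and with total counts only (adjusted p = 0.068). With 2 of the 7 up-regulated (28.6%) and 3 down-regulated (42.9%), beside 36.6% and 36.2% of all genes, nothing particular to these genes is read from the counts.

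The ribosome works with a set of translation factors. The list of 15 genes measured here also holds LRPPRC and OXA1L, which are not translation factors and which both rose. 7 rose (46.7%, beside 36.6% of all genes) and 4 fell (26.7%, beside 36.2%). In either direction 73.3% were called, close to the 72.9% of all genes. The median log2 fold change was 0.15, beside 0.00 over all genes. LRPPRC, which stabilises mitochondrial mRNAs, rose from 145, 132 and 138 CPM to 260.3, 267 and 284 CPM (log2 fold change 0.97 ± 0.06, adjusted p = 2.9e-10). The initiation factor MTIF2 (0.66), the elongation factors TUFM (0.27) and GFM1 (0.15), the recycling factor GFM2 (0.56), the GTPase GUF1 (0.36) and the membrane insertase OXA1L (0.45) rose as well. TSFM, the exchange factor of TUFM, fell (-0.60), as did C12orf65 (-0.76) and MTRF1L (-0.50), of the release factor family, and the methionyl-tRNA formyltransferase MTFMT (-0.54). GFM1 was not called without the second NC library (adjusted p = 0.17), the third NC library (adjusted p = 0.11) or the third BNC2 library (adjusted p = 0.14), nor with total counts only (adjusted p = 0.27) or DESeq2 (adjusted p = 0.051).

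Of 25 genes for ribosome assembly and rRNA modification, 9 rose (36.0%, beside 36.6% of all genes) and 7 fell (28.0%, beside 36.2%), with a median of -0.03. Without the third BNC2 library 4 fell. The largest rise was in WBSCR16, 10.8, 13.3 and 13.4 CPM with NC siRNA and 27.9, 27.5 and 31.8 CPM with BNC2 siRNA (log2 fold change 1.22 ± 0.10, adjusted p = 1.7e-08), followed by the endoribonuclease YBEY (0.86), the rRNA dimethyltransferase TFB1M (0.67) and the small-subunit maturation factor RBFA (0.62). Among the falls were TRUB2 (-0.72), a pseudouridine synthase family protein, and MTERFD1 (-0.60). Of 12 genes of mitochondrial transcription and DNA maintenance, the elongation factor TEFM rose (0.71), TFAM, which packages the mitochondrial genome, fell (-0.43), PNPT1 (-0.20) and SLIRP (-0.21) fell, and 8 were not called, so that 33.3% were called, beside 72.9% of all genes. SLIRP (adjusted p = 0.049) had overlapping groups, and its call was lost without replicate 2 or replicate 3 of either group (adjusted p = 0.081 to 0.21), with filterByExpr (adjusted p = 0.058) and with both strands counted (adjusted p = 0.053). PNPT1 was not called without the third NC library (adjusted p = 0.071), which left TFAM as the 1 fall, or the first BNC2 library (adjusted p = 0.063). Of 9 tested regulators of mitochondrial biogenesis, 6 rose by edgeR's test (66.7%, beside 36.6% of all genes up-regulated and 72.9% called in either direction), and the lowest log2 fold change was 0.03 (median 0.33): MYC (0.47), GABPA (0.46), YY1 (0.43), ESRRA (0.38), PPRC1 (0.33) and CREB1 (0.31). NRF1 (0.03, adjusted p = 0.79), GABPB1 and PPARGC1B were not called, and the coactivator gene PPARGC1A did not pass the expression filter.

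**Figure D4:**
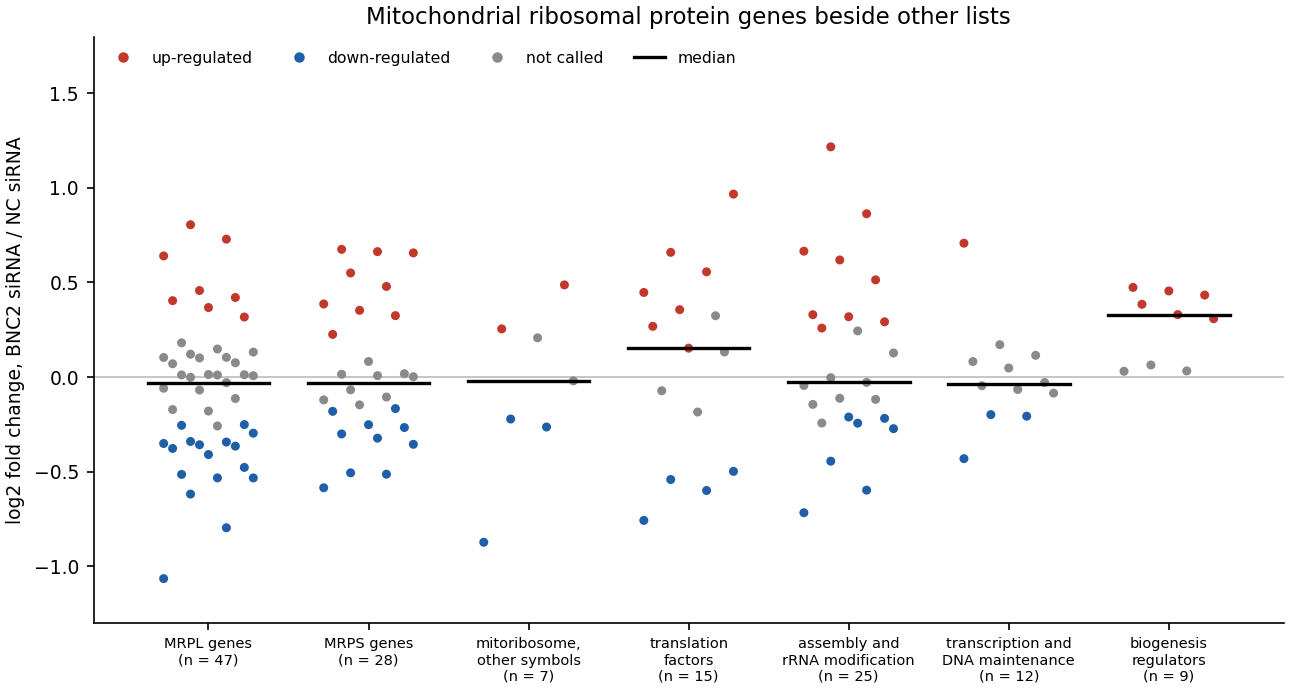
Log2 fold change (y axis) of each tested gene for the MRPL and MRPS genes and the 5 companion lists, with colours for the call and a black line at the median. Medians lie near 0 for the MRPL and MRPS genes and at 0.33 for the biogenesis regulators, of which 6 of 9 rose, beside 36.6% of all genes.

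Beside the mitochondrial ribosome, the genes of the cytosolic ribosome and of oxidative phosphorylation were counted in the same comparison, which uses the same libraries. Of 75 cytosolic ribosomal protein genes tested, 45 rose (60%, beside 36.6% of all genes) and 5 fell (6.67%, beside 36.2%), with a median of 0.24. The 5 falls became 2 without the second NC library, the second BNC2 library or the third BNC2 library, and 3 without the third NC library. Of 74 subunit genes of the oxidative phosphorylation complexes, 12 rose (16.2%) and 42 fell (56.8%), with a median of -0.21. The mitochondrial ribosomal protein genes, with 17 up and 27 down, lay between these. The differences between the families were not tested. Genes of the mitochondrial genome itself were not analysed here.

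Some of the family lie head to head with another gene and start within 1000 bp of it. In the GENCODE annotation of hg19 this held for 23 of the 76, in 22 pairs, MRPL46 and MRPS11 forming one pair between them. How often this holds over all genes was not counted. Both partners were called in 11 pairs, in the same direction in 5 and in opposite directions in 6. With 72.9% of all genes called, about equally in each direction, these counts are not read as particular to the pairs. MRPL32 and PSMA2, a proteasome subunit gene, start 202 bp apart and fell together, PSMA2 from 94.9, 95.3 and 115 CPM to 58.7, 57.2 and 56.4 CPM (log2 fold change -0.83, adjusted p = 4.8e-08). MRPS12 and SARS2, the mitochondrial seryl-tRNA synthetase gene, start 181 bp apart and moved in opposite directions: SARS2 rose from 19.3, 21.7 and 24.1 CPM to 33.3, 30.1 and 31.2 CPM (log2 fold change 0.54, adjusted p = 5.1e-05). MRPL30 rose while MITD1, 126 bp away, fell (-0.55), and MRPL40 rose while HIRA, a histone chaperone gene 812 bp away, fell from 83.2, 86.4 and 83.3 CPM to 32.6, 33.3 and 36.4 CPM (-1.31).

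The other opposite pairs were MRPL2 and KLC4 (-0.26 and 1.08), MRPL27 and EME1 (-0.25 and 0.62) and MRPL21 and IGHMBP2 (0.32 and -0.33). The other pairs that moved together were MRPL51 and NCAPD2 (-0.34 and -0.35), MRPL13 and MTBP (-0.41 and -0.35), MRPL14 and TMEM63B (-0.35 and -0.21), and MRPS27 and PTCD2 (0.48 and 0.33). Single libraries decided the call of 3 of these neighbours. MTBP was not called without the third NC library (adjusted p = 0.11) or the first BNC2 library (adjusted p = 0.067), and TMEM63B not without the third NC library (adjusted p = 0.066) or the third BNC2 library (adjusted p = 0.11), nor without the low-count filter (adjusted p = 0.052). PTCD2 was not called without the first NC library (adjusted p = 0.22), the third NC library (adjusted p = 0.096) or the third BNC2 library (adjusted p = 0.21), nor with DESeq2 (adjusted p = 0.054) or total counts only (adjusted p = 0.11). In 5 pairs only the ribosomal gene was called, in 2 only the neighbour and in 4 neither.

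**Figure D5:**
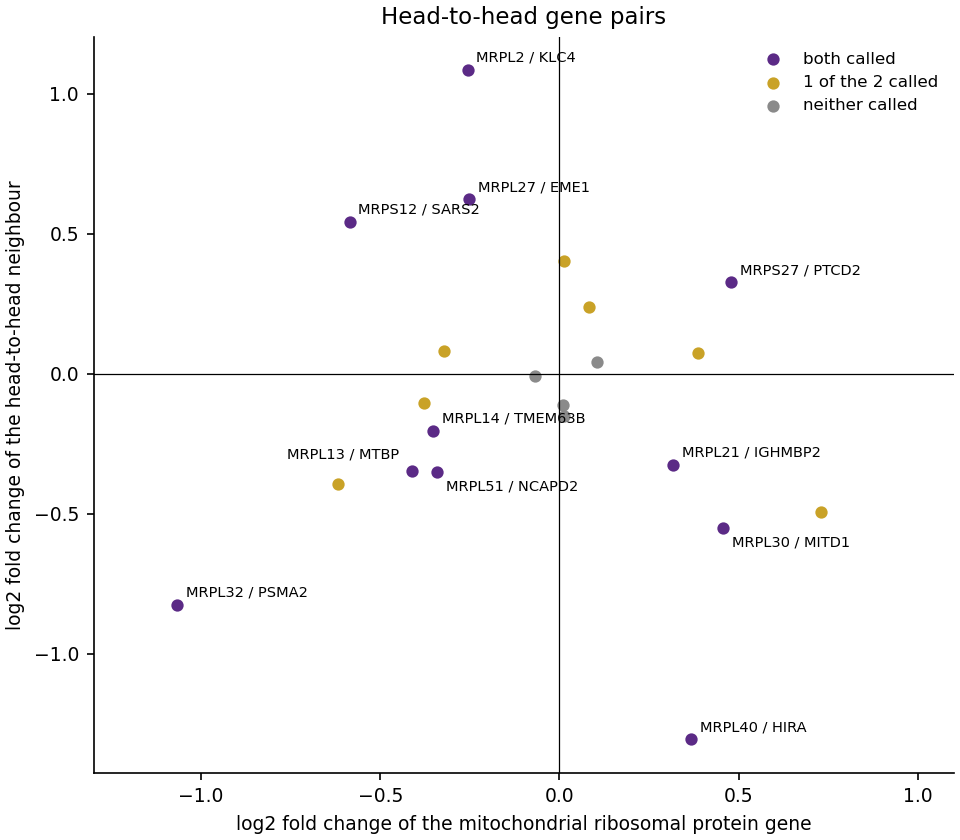
Log2 fold change of each mitochondrial ribosomal protein gene (x axis) against that of its head-to-head neighbour (y axis) for 22 pairs that start within 1000 bp, with purple for pairs in which both were called. Of these 11 pairs, 5 lie in the quadrants of shared direction and 6 in those of opposite direction.

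The motifs marked in the printed start regions were counted over 83 RefSeq windows of 67 of the 76 genes and over 35116 windows of all genes, at 300 bases each. CCGGAAG, the ETS letters, occurred in 38.6% of the family's windows, beside 10.3% of all, and AAGATGGCG, the YY1 letters, in 15.7%, beside 1.75%. GCGCATGC (NRF1) occurred in 7.23% beside 3.05%, ACTACANTT (ZNF143) in 6.02% beside 1.34%, GGGCGG (SP1) in 60.2% beside 45.0% and CACGTG in 10.8% beside 7.26%. CCAAT was about as common in the family (33.7%) as in all windows (34.6%), and TATAAA was rarer (3.61% beside 11.5%). Divided by call, CCAAT occurred in 2 of 16 windows of up-regulated genes and 13 of 32 of down-regulated genes, and CCGGAAG in 8 of 16 and 13 of 32. YY1 letters occurred in 2 of 16 and 5 of 32. These counts are descriptions, no difference between them was tested, and windows of 1 gene overlap in part.

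The up-regulated and down-regulated genes lay on 13 and 17 chromosomes. The median coding transcript had a median length of 1638 nt in the 17 up-regulated, 959 nt in the 27 down-regulated and 1175 nt in the 31 genes not called, and their median NC levels were 44.3, 55.2 and 49.98 CPM. These lengths ranged from 693 to 3094.5 nt and from 456 to 3792 nt in the up- and down-regulated genes, so that the groups overlapped. GENCODE lists pseudogenes named after 9 of the 17, 14 of the 27 and 12 of the 31, and reads that map equally well to a copy are missing from the counts. The part of length and of such copies in the calls was not tested.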

How the data were processed

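BT549 cells were transfected with BNC2 siRNA or NC siRNA, and 3 libraries of each group were analysed, with groups and replicate numbers taken from the labels. The methods state poly(A) selection, single-end sequencing and biological replicates. The authors aligned the reads with STAR to hg19 and deposited whole-number counts per gene without normalisation. The submitters' processing notes name STAR 2.6.1d. In every gene the table of the series equals the reverse-strand column of the library tables. Rows without a gene name entered neither the library sizes nor the tests.

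From these counts, edgeR 4.0.16 (R 4.3.3) was used with TMM scaling, a filter of more than 1 CPM in at least 3 of 6 libraries and the quasi-likelihood test, with Benjamini-Hochberg adjustment over 12186 genes and calls at an adjusted p of at most 0.05. The biological coefficient of variation common to all genes was 6.16%. The scripts were tested on simulated data. At 16093978 to 18246254 counts per library, a count of 0 allows 3 counts, or up to 0.191 CPM, for counting error only.

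Alternatives were edgeR's likelihood ratio test, DESeq2 1.42.0, its size factors in edgeR, total counts only, no low-count filter, edgeR's filterByExpr, both strands counted together, a replicate block and leaving out each library. The members and lists were chosen with earlier results of these data known. Named were the 8 largest falls and 8 largest rises called, 3 genes on each side of the threshold, the 3 highest and 3 lowest levels per transcript length, and MRPL12, MRPL41, MRPS12, MRPS30, MRPS18A, MRPS18B, MRPS18C, MRPS36 and DAP3 for their role; other genes were named after their values were seen. Positions and lengths are from GENCODE release 44 on GRCh37, the assembly of hg19, and promoters from RefSeq (GRCh38.p14), which held 67 of the 76 genes. Python 3.11.15 and pandas 2.3.3 were used for summaries, and matplotlib 3.10.9 for figures.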

Additional observations from a re-analysis of the deposited data

Results flagged for a closer look

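Reads on the strand opposite to a gene are not part of the counts used above. Over the 3 BNC2 siRNA libraries 125 such reads lay at MRPS18C (39, 47 and 39), compared with 36 over the 3 NC siRNA libraries (13, 8 and 15), which is above the control level. Of the 73 members with enough such reads to be tested by edgeR, 5 were called, MRPS18C higher (log2 fold change 2.29, adjusted p = 1.1e-11) and MRPL37, MRPL34, MRPL19 and MRPL2 lower, beside 11.9% of the 12102 genes tested in the same way. In all, 528 to 1032 opposite-strand reads per library lay at the 76 genes, 0.646% to 1.18% of the reads counted there on both strands.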

How the results depend on the processing

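Under all 14 alternatives, 37 of the 44 calls held with their direction, 15 higher and 22 lower. The other 7 were MRPL21 and MRPL22 (held in 13), MRPS22 (in 12), MRPL27 and MRPS36 (in 11), MRPS35 (in 10) and MRPS6 (in 9). Leaving out each library in turn gave 15 to 19 up-regulated and 24 to 36 down-regulated genes, the latter highest without the first NC library, with a median of -0.07 to -0.01. Without the low-count filter 19 were up-regulated and 27 down-regulated, and with filterByExpr 18 and 27, so that calls were gained as well as lost. With total counts only, 16 were up-regulated and 32 down-regulated. The median log2 fold change was then -0.11 in place of -0.03, beside -0.07 for all genes in that scaling. Of the 31 genes not called, 13 changed sign under at least 1 alternative, 11 of them with total counts only, which moved all genes down alike. Among the genes named in the text, these were MRPS14 with total counts only (-0.061), with counts of both strands (-0.023) and without single libraries (-0.087 to 0.065), MRPL12 with total counts only (-0.00047) and without single libraries (-0.012 to 0.15), MRPS30 with total counts only (-0.059) and without single libraries (-0.068 to 0.048), MRPL53 with total counts only (-0.0048), without the first NC library (-0.036) and without the first BNC2 library (-0.023), and MRPL54 without the third BNC2 library (0.011). The fall of BNC2 held in all 14. The replicate block gave 16 higher and 26 lower with a median of -0.03. Same-numbered libraries did not deviate together (correlations -0.21, -0.08 and -0.13). With 3 libraries per group this cannot settle whether the samples were prepared in pairs, which the labels do not state. With the block MRPS35 and MRPS6 lost their calls (adjusted p = 0.057 and 0.056), as did GFM1 (0.079), SLIRP (0.089, leaving 2 falls in its list) and the neighbour TMEM63B (0.055), and 3 cytosolic ribosomal protein genes fell in place of 5. The fit without the low-count filter tested all 76 genes, including MRPS24, whose counts do not give its level.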
